A study of Chlamydomonas reinhardtii with 9 samples.

Results

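The mutant mcd1-2 of the green alga Chlamydomonas reinhardtii was set against wild type on 3 of the 9 spotted arrays of the study, chosen by their titles. Per the labels, total RNA of mcd1-2, a nonphotosynthetic mutant, was in channel 1 of these arrays and total RNA of the wild-type strain P17 in channel 2. The other arrays compared the allele mcd1-1 with the same wild type (3 arrays) and the photosynthetic suppressor mcd2-1 with mcd1-2 (3 arrays). The labels tag every array with the keyword petD mutant. They give neither growth conditions nor cell density, and do not say whether P17 and the mutant share their genetic background. They number the arrays 1 to 3 but name no culture, so the p-values cover the spread between arrays alone, and that spread may be technical.

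As background, chloroplast mRNAs of this alga are kept stable by nucleus-encoded proteins, many of which act on the 5′ end of a single chloroplast transcript. MCD1 is such a gene, and its product is needed for petD mRNA to accumulate. petD encodes subunit IV of the cytochrome b6f complex, which passes electrons from photosystem II to photosystem I, so cells without it cannot grow by photosynthesis. No probe is tied to MCD1, to petD or to another chloroplast gene by the annotation used here, so the state of the mutated gene and of its known target was not analysed.

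Each array carried 213 spots, read here as 71 probes of 3 consecutive spots. Of these, 11 probes have a nuclear locus name and the other 60 are given by spot number alone. Values are log ratios taken as log2 of mutant over wild type, the likely but unstated direction, after subtraction of each array's median over probes. The medians subtracted from replicates 1, 2 and 3 were 0.09, 0.38 and -0.12, so without this step every mean of a probe seen on all arrays would lie 0.12 higher. A value of 0 therefore means the same ratio as the middle probe of the array and says nothing of the RNA content of the cells. In these bulk RNA samples, fewer expressing cells and less RNA per cell cannot be told apart.

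Replicates 1 and 2 gave a value on all 213 spots, and replicate 3 on 198, which left 5 probes with 2 arrays. Within a probe, the SD over its spots had a median of 0.0971, 0.10 and 0.0583 on replicates 1, 2 and 3, and reached 1.21, 0.834 and 0.363. Between arrays the spread was wider, with a median SD of 0.44 over the 71 probes. That SD ran from 0.08 to 1.53 among the 66 probes seen on all arrays. The median SD was 0.35 between the mcd1-1 arrays and 0.85 between the suppressor arrays. Without spot intensities no signal floor could be set, and the number of arrays limits the precision.

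In mcd1-2, the RNAs measured by 2 unnamed probes fell far below all others and those measured by 2 further unnamed probes rose moderately. The probe of spots 97 to 99 was 27.7-fold lower than in wild type and the probe of spots 13 to 15 was 8.95-fold lower. The rises, at spots 55 to 57 and at spots 58 to 60, were 3.24-fold and 3.20-fold. These 4 probes were 5.63% of the 71 tested with limma (each group mean against 0, two-sided, Benjamini-Hochberg adjusted p under 0.05), 2.82% in each direction. All 4 had one sign on every array, which held for 28 of all 71 probes (39.4%). None of the 11 nuclear loci was among them. Before adjustment, 8 probes had a p under 0.05, of which 5 were higher and 3 lower.

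Spots 97 to 99 stood at -5.11 on replicate 1, at -4.14 on replicate 2 and at -5.12 on replicate 3. Every array was low, and replicates 1 and 3 nearly coincided, with replicate 2 the least low. The mean was -4.79 ± 0.56 (SD, n = 3). Its limma adjusted p was 6.58e-08, and the 95% interval spanned 14.4-fold to 53.2-fold lower. Within replicate 2 the single spots ran from -4.83 to -3.73, and within replicate 3 from -5.14 to -5.09. No spot of this probe on any mcd1-2 array came near 0, so the fall did not rest on a single spot.

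Spots 13 to 15 stood at -3.02, -2.71 and -3.75 on replicates 1, 2 and 3. The lowest single-array value of any other probe except spots 97 to 99 was -2.01, for spots 124 to 126 on replicate 3. The mean of spots 13 to 15 was -3.16 ± 0.53 (SD, n = 3, limma adjusted p = 1.16e-05), and the interval spanned 4.82-fold to 16.6-fold lower. Its single spots ran from -3.08 to -2.91 on replicate 1, from -2.84 to -2.61 on replicate 2 and from -3.89 to -3.54 on replicate 3. Both falls kept an adjusted p under 0.05 in each of the 15 alternatives run, the highest being 0.00225 for spots 97 to 99 and 0.00616 for spots 13 to 15.

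These were the only 2 probes below -1 on all 3 arrays. Of the sum of squared means over the 71 probes, spots 97 to 99 held 43.5%, spots 13 to 15 held 19.0% and the other probes together 37.5%. No mean of another probe was below -1. The third lowest, spots 88 to 90, stood at -1.62, -0.89 and -0.20. Its mean of -0.90 ± 0.71 (SD, n = 3) did not pass (limma adjusted p = 0.216), except with array weights (-1.01, limma adjusted p = 0.0343, against up to 0.981 over its alternatives).

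**Figure D1:**
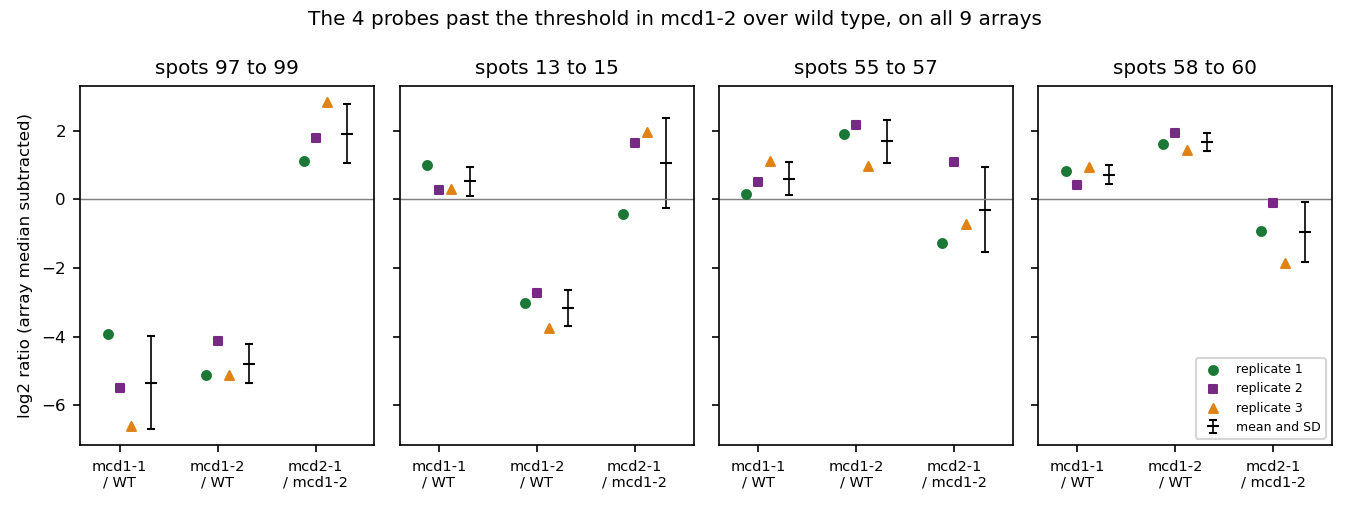
Log2 ratios (array median subtracted) of the 4 probes past the threshold in mcd1-2 over wild type, in 3 comparisons with 3 arrays each. Points are arrays, with the shape and colour giving the replicate number, and black marks are the mean and SD. On the mcd1-2 arrays spots 97 to 99 sit between -5.12 and -4.14 and spots 13 to 15 between -3.75 and -2.71, while on the mcd1-1 arrays spots 13 to 15 sit above 0.

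Among the rises, spots 58 to 60 repeated best. They stood at 1.63, 1.95 and 1.45, and were the only probe above 1 on all 3 arrays. The mean was 1.68 ± 0.25 (SD, n = 3, limma adjusted p = 0.00564), and the interval spanned 1.85-fold to 5.51-fold higher. The adjacent spots 55 to 57 stood at 1.92, 2.18 and 0.99, with replicate 3 well below the other arrays. Their mean was 1.69 ± 0.62 (SD, n = 3, limma adjusted p = 0.013), and the interval spanned 1.75-fold to 5.995-fold.

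Both rises lost their call when replicate 1 or replicate 2 was left out. Leaving out replicate 1 put spots 55 to 57 at 1.58 and spots 58 to 60 at 1.70 (limma adjusted p = 0.124 and 0.0519), and leaving out replicate 2 put them at 1.45 and 1.54 (0.227 and 0.116). Fitting the 3 mcd1-2 arrays by themselves left spots 55 to 57 at 1.69 with a limma adjusted p of 0.0637, and removing a running median over adjacent probes left them at 1.18 (limma adjusted p = 0.109). On replicate 3, which shares 4 wholly missing probes with one array of each other comparison, spots 55 to 57 and 58 to 60 stood at 0.99 and 1.45, against means of 2.05 and 1.79 on the others. For spots 97 to 99 and 13 to 15 the same split gave -5.12 against -4.63 and -3.75 against -2.87.

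The next 3 probes in order, all unnamed, had means above 1 but did not pass. Spots 34 to 36 stood at 2.42 and 2.05 on replicates 1 and 2 and at -0.40 on replicate 3, a mean of 1.36 ± 1.53 (SD, n = 3, limma adjusted p = 0.122). This was the widest spread of any probe seen on all arrays. Without replicate 3 the mean was 2.23 (limma adjusted p = 0.00853). The 3 values of spots 43 to 45 were 0.49, 2.08 and 1.27, a mean of 1.28 ± 0.79 (SD, n = 3, limma adjusted p = 0.0601), above 0 on every array. Spots 46 to 48 stood at 0.62, 2.43 and 0.69, a mean of 1.25 ± 1.03 (SD, n = 3, limma adjusted p = 0.152), with replicate 2 far above the other arrays.

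These 5 highest means all fell in one run of spot numbers, 34 to 60, which holds 9 probes. The other 4 probes of the run had means between -0.11 and 0.46. The median over those 4 was 0.18, and over the 62 probes outside the run it was -0.07, with no mean there above 1. The number of probes above 1 inside the run was 3 of 9 on replicate 1, 5 on replicate 2 and 2 on replicate 3, out of 5, 8 and 6 on the whole arrays. In mcd1-1 the same 5 probes had a median of 0.42. The run was picked after its values were seen, so no test was made, and the labels do not say whether spot numbers follow the place on the slide or the order of genes. The part of position on the slide in these means was not tested.

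**Figure D2:**
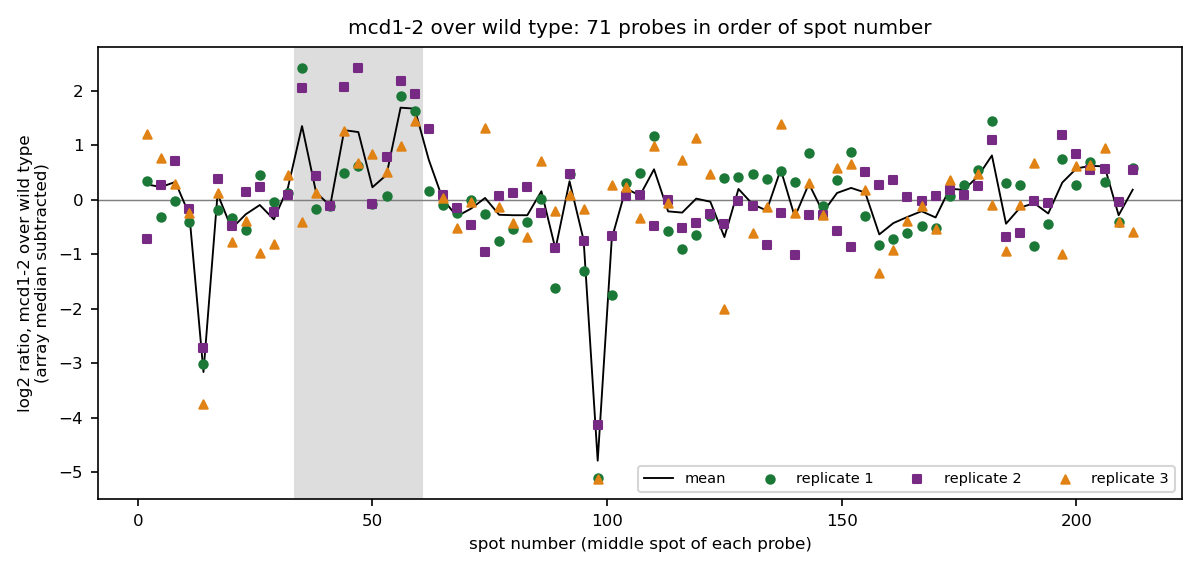
Log2 ratio of mcd1-2 over wild type (array median subtracted) for all 71 probes in the order of their spot numbers. Points are arrays, the black line joins the means, and the grey band marks spots 34 to 60. The falls at spots 13 to 15 and 97 to 99 stand alone, while the 5 highest means, from 1.25 to 1.69, lie inside the band.

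The medians of the means stayed near 0 along the rest of the spot numbers, although the 2 falls lie there. In sets of 10 probes (11 in the last), the median of the means was -0.18 for spots 1 to 30, 0.85 for spots 31 to 60 and -0.22 for spots 61 to 90. It was -0.09, -0.06, -0.04 and 0.19 in the 4 later sets. In spots 31 to 60, 9 of 10 means were above 0, against 4 to 6 in each other set.

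Below these, the highest mean, that of spots 181 to 183, came to 0.82 ± 0.81 (SD, n = 3, limma adjusted p = 0.389), with replicate 3 at -0.10 and the other arrays above 1. Spots 61 to 63, with values on replicates 1 and 2 alone, stood at 0.17 and 1.31. Spots 202 to 204, 205 to 207 and 199 to 201 are consecutive and had means of 0.63, 0.62 and 0.58, each above 0 on all arrays. Spots 202 to 204 had the lowest spread of any probe seen on all arrays, at 0.08 (SD, n = 3), and did not pass (limma adjusted p = 0.721). The fit draws the spread of each probe towards that of all probes.

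On the low side, the means from the fourth to the tenth lowest lay between -0.74 and -0.43, and 3 of these 7 belong to nuclear loci described below. The others were spots 124 to 126, which stood at 0.41, -0.44 and -2.01, and spots 157 to 159, 184 to 186 and 160 to 162, each with one array above 0. None passed under any alternative run. The 95% interval of the mean lay within 1 of 0 for 19 of 71 probes and within 2 for 63. Its margin on either side of the mean ran from 0.72 to 1.35 on the log2 scale. Outside those 19 probes the interval reached or passed a 2-fold change in at least one direction.

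**Figure D3:**
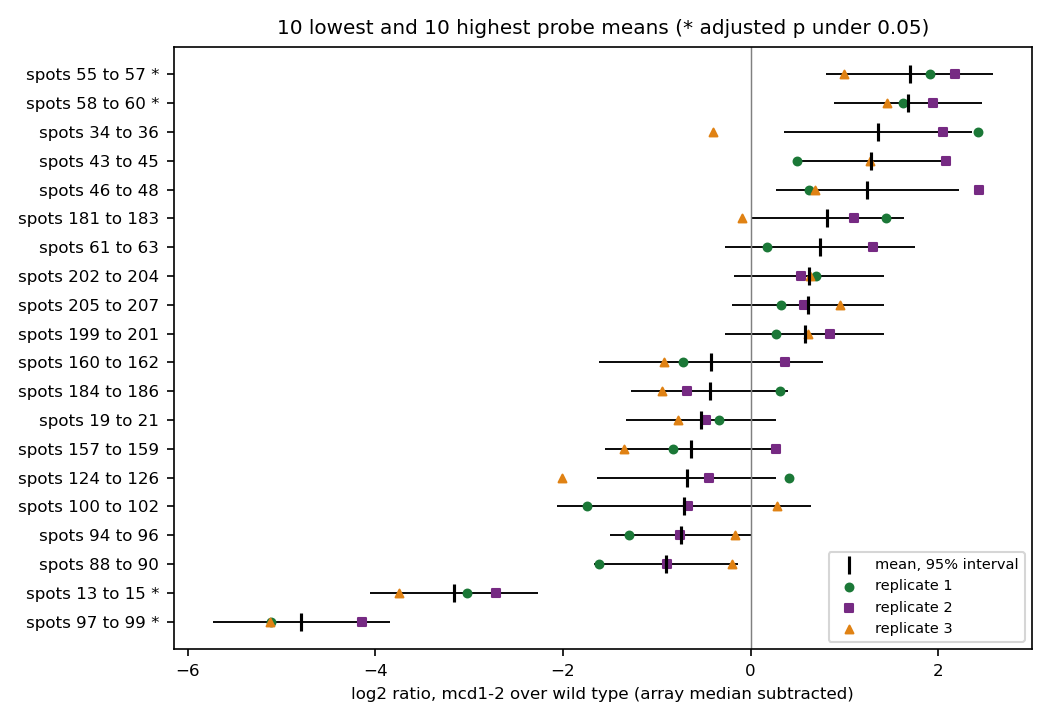
The 10 lowest and 10 highest probe means for mcd1-2 over wild type, as log2 ratios (array median subtracted). Coloured points are arrays, vertical ticks are means, horizontal lines are 95% intervals of the limma fit over all 9 arrays, and asterisks mark an adjusted p under 0.05. The 2 falls are clear of all other probes, and the wide scatter of spots 34 to 36 comes from replicate 3 at -0.40.

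How far the arrays repeated each other depended on the 2 falls. Across probes, which are not independent replicates, Pearson's r was 0.725 between replicates 1 and 2 (71 probes), 0.613 between 1 and 3 and 0.552 between 2 and 3 (66 probes each). Without spots 97 to 99 and 13 to 15 these values were 0.511, 0.19 and 0.153. Spearman's rho over all probes was 0.339, 0.287 and 0.124 for the same pairs. All pairs share the platform, and may share RNA.

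The arrays parted on single probes. Of the 66 probes seen on all arrays, 16 had one array more than 1 away from both others. This array was replicate 3 for 9 probes, replicate 2 for 6 and replicate 1 for 1. The gap was widest for spots 34 to 36 (2.45), followed by spots 196 to 198 (1.75), with replicate 3 low on both, and spots 46 to 48 (1.75), with replicate 2 high. At least one array was beyond 1 in size for 21 of the 71 probes, but a single probe was above 1, and 2 were below -1, on every array.

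**Figure D4:**
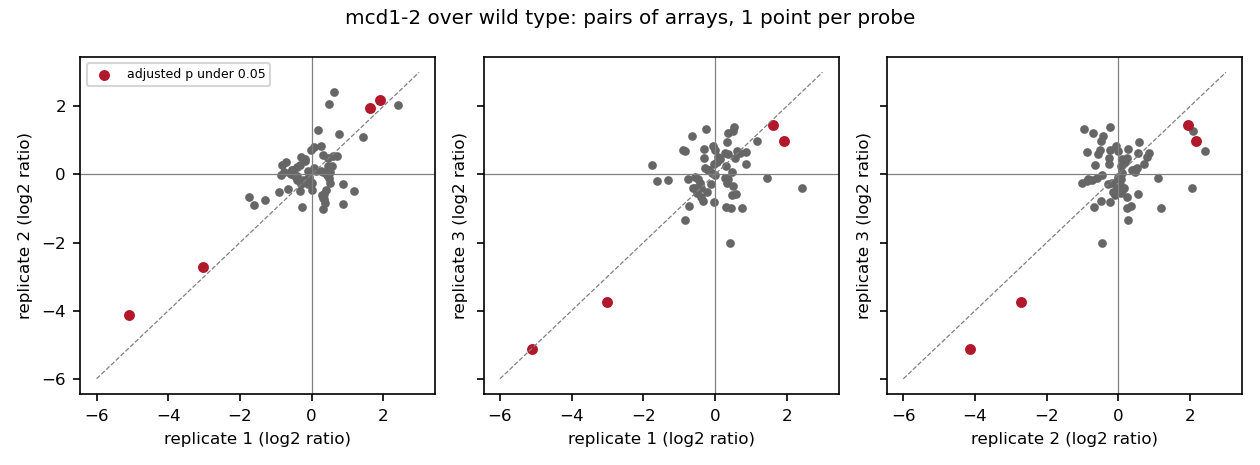
Each panel sets one mcd1-2 array against another, with 1 point per probe and both axes as log2 ratios of mcd1-2 over wild type (array median subtracted). Red points are the 4 probes with an adjusted p under 0.05, and the dashed line marks equal values. The 2 falls lie near the line at the lower left in every panel, while the remaining probes scatter around 0.

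Mutant alleles were compared next, to ask where mcd1-2 differed from mcd1-1, both being measured against P17. Each allele was measured on its own arrays, so allele, strain background and array set cannot be told apart. Spots 13 to 15 separated them. On the mcd1-1 arrays this probe stood at 1.02, 0.28 and 0.30, above 0 on every array, with a mean of 0.53 ± 0.42 against -3.16 ± 0.53 in mcd1-2 (SD, n = 3 each). The ratio was 12.9-fold lower in mcd1-2, a difference (mcd1-2 minus mcd1-1) of -3.69 with a limma adjusted p of 0.000366 and a 95% interval from -4.95 to -2.43. No array of one allele overlapped the other. That was also so for 13 of the 71 probes in all (18.3%), of which 8 were higher in mcd1-2 and 5 lower. Among the 5 lower, spots 40 to 42 and 193 to 195 have no value on 1 array of each allele, which makes overlap less likely. The limma test called 1 of the 71 probes (1.41%). The call stood in each of the 17 alternatives run, with a limma adjusted p between 2.74e-06 and 0.011.

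For spots 97 to 99 no difference between the alleles was detectable. The mcd1-1 arrays stood at -3.93, -5.49 and -6.60, a range that holds all 3 mcd1-2 values. The difference was 0.55 with an interval from -0.78 to 1.89 (limma adjusted p = 0.958), which leaves room for a ratio up to 3.70-fold apart. The SD was 1.35 in mcd1-1 and 0.56 in mcd1-2, and the fit uses one spread for both.

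The rises did not differ past the threshold either. Spots 58 to 60 stood at 0.82, 0.41 and 0.94 in mcd1-1, below every mcd1-2 value, and differed by 0.95 (interval from -0.16 to 2.06, limma adjusted p = 0.861). The mcd1-1 arrays put spots 55 to 57 at 0.16, 0.52 and 1.12, overlapping replicate 3 of mcd1-2, and differed by 1.09 (limma adjusted p = 0.861, interval from -0.16 to 2.35). The highest difference was that of spots 46 to 48, which were below 0 on all mcd1-1 arrays and above 0 on all mcd1-2 arrays. It came to 1.73 (interval from 0.35 to 3.11, limma adjusted p = 0.597). It was the only other probe with an unadjusted p under 0.05. Spots 34 to 36 ranked next with a difference of 1.22, and spots 181 to 183 came after both rises with 0.905 (limma adjusted p = 0.861 for both). On the low side, after spots 13 to 15, came spots 40 to 42 at -1.07 (interval from -2.69 to 0.54). These have no value on mcd1-1 replicate 2 or mcd1-2 replicate 3. Then came spots 139 to 141 at -0.95, spots 88 to 90 at -0.81 and spots 157 to 159 at -0.79. The limma adjusted p of these low differences after spots 13 to 15 ran from 0.861 to 0.91.

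On the suppressor arrays, where mcd1-2 RNA was the reference, the direction is not settled. Across probes, replicates 1 and 2 correlated at -0.314, replicates 1 and 3 at -0.109, and replicates 2 and 3 at 0.125. The values of the same 4 probes are set beside the others with no test, because mcd1-2 RNA enters both ratios. Spots 97 to 99 stood at 1.13, 1.78 and 2.83 (mean and SD 1.92 ± 0.86, and 1.16 ± 2.05 with the sign of replicate 1 turned). Spots 13 to 15 stood at -0.44, 1.65 and 1.97 (1.06 ± 1.31, or 1.35 ± 0.81 turned). Spots 55 to 57 stood at -1.27, 1.09 and -0.73 (-0.30 ± 1.24, or 0.54 ± 1.11 turned). The values of spots 58 to 60 were -0.91, -0.09 and -1.85 (-0.95 ± 0.88, or -0.35 ± 1.40 turned).

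The 11 named probes are nuclear loci, and in mcd1-2 none passed the threshold, nor did any under the alternatives run. Before adjustment none had a p under 0.05, against 8 of the 60 unnamed probes. Their means lay between -0.74 and 0.33 with a median of -0.26, while the unnamed probes had a median of 0.12. A mean below 0 was found for 7 of 11, and for 34 of all 71 probes. By array, 11 of 11 lay below 0 on replicate 1, 7 on replicate 2 and 5 on replicate 3, against 35 of 71, 35 of 71 and 33 of 66 of all probes. The shift of replicate 1 was thus not seen on replicate 3. The tables give locus tags alone, so the roles below are general background on this alga.

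Chloroplast ATP synthase uses the proton gradient to make ATP, and the probes for its nuclear gamma and delta subunits had means below 0 that did not pass. CHLRE_06g259900v5 (gamma) stood at -0.33, -0.48 and -0.77, a mean of -0.53 ± 0.22 (SD, n = 3, limma adjusted p = 0.724). It was the only one of the pair below 0 on every array. CHLRE_11g467569v5 (delta) stood at -0.55, 0.14 and -0.39, a mean of -0.26 ± 0.36 (SD, n = 3, limma adjusted p = 0.857).

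Plastocyanin carries electrons from the cytochrome b6f complex to photosystem I. Its probe, CHLRE_03g182551v5, stood at -1.75, -0.66 and 0.28, a mean of -0.71 ± 1.01 (SD, n = 3, limma adjusted p = 0.857). The arrays disagreed in sign, and the interval of the mean, from -2.06 to 0.64, was wide. The 2 nuclear photosystem I probes split in the same way between arrays. CHLRE_05g238332v5 (PsaD, which docks ferredoxin) stood at -0.90, -0.53 and 0.72, and CHLRE_09g412100v5 (PsaF, which binds plastocyanin) at -0.65, -0.42 and 1.14. On these 3 loci replicates 1 and 2 were below 0 and replicate 3 was above 0, so the means of -0.23 ± 0.85 and 0.02 ± 0.98 (SD, n = 3) of the photosystem I pair describe no array well.

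The oxygen-evolving complex splits water at photosystem II. Of its extrinsic proteins, the PsbO probe CHLRE_09g396213v5 stood at -0.10, 0.10 and 0.03, a mean of 0.01 ± 0.10 (SD, n = 3), with an interval from -0.80 to 0.82. The PsbP probe CHLRE_12g550850v5 stood at -0.24, -0.16 and -0.51, below 0 on every array, with a mean of -0.30 ± 0.19 (SD, n = 3, limma adjusted p = 0.857). On single arrays the spots scattered more than the array means: the SD over spots was 0.573 for PsbO on replicate 2 and 0.346 for PsbP on replicate 1. With the median of the spots in place of their mean, PsbO stood at 0.14.

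Alternative oxidases pass electrons from ubiquinol to oxygen in mitochondria without pumping protons. The 2 loci had the highest means of the 11 named probes. CHLRE_03g169550v5 stood at -0.02, 0.72 and 0.29, a mean of 0.33 ± 0.37, and CHLRE_09g395950v5 at -0.32, 0.27 and 0.76, a mean of 0.24 ± 0.54 (SD, n = 3), both with a limma adjusted p of 0.857. Each was below 0 on replicate 1 and above 0 on the other arrays.

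To 2 further loci no role is given here. CHLRE_07g326150v5 had the lowest mean of the 11, at -1.30, -0.75 and -0.17, or -0.74 ± 0.56 (SD, n = 3, limma adjusted p = 0.389). It fell short of an unadjusted p of 0.05 (0.0547) and was below 0 on every array. CHLRE_16g671400v5 stood at -0.41, -0.17 and -0.24, a mean of -0.28 ± 0.12 (SD, n = 3, limma adjusted p = 0.857). Between the alleles no nuclear locus differed past the threshold: the differences, mcd1-2 minus mcd1-1, ran from -0.38 for CHLRE_03g182551v5 to 0.47 for CHLRE_03g169550v5 (limma adjusted p from 0.958 to 0.997).

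**Figure D5:**
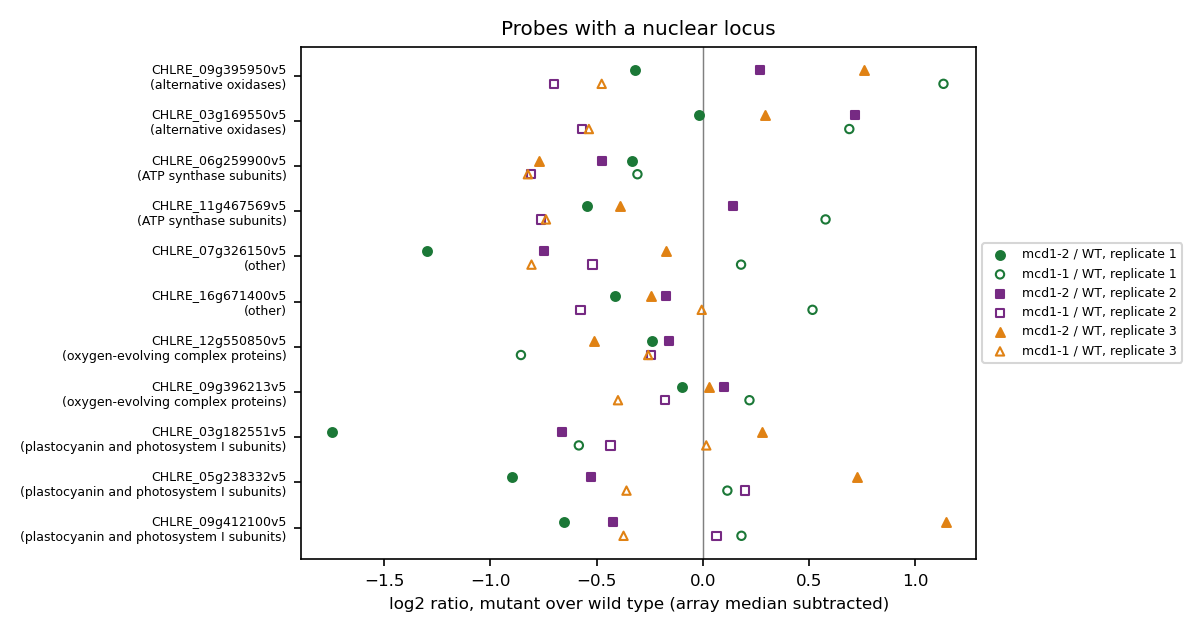
Log2 ratios of mutant over wild type (array median subtracted) for the 11 probes with a nuclear locus, with filled points for the 3 mcd1-2 arrays and open points for the 3 mcd1-1 arrays. Shape and colour give the replicate number, and the brackets give the role as general background. All filled points lie between -1.75 and 1.14, and the plastocyanin and photosystem I rows show replicate 3 of mcd1-2 above 0 with replicates 1 and 2 below.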

How the data were processed

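The deposited table holds log ratios of 2 channels for 213 spots, made by the authors and taken here as log2. Their base, centring and direction, and the dyes, scanner, background correction and normalization, are not stated in the labels or the table. Base 2 was assumed because the lowest value in the table, -13.4, exceeds what a natural log ratio of 16-bit intensities can reach (11.1). It comes from a single spot of a suppressor array, so fold changes rest on an assumption. An opposite direction would swap every rise and fall. Spots were averaged in consecutive sets of 3, and each array's median over the 71 probes was subtracted. All 11 annotated loci matched RefSeq's table for assembly v5.5. The annotation names 33 spots.

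A linear model with a mean for each group was fitted to all 9 arrays (lmFit and eBayes of limma 3.58.1, R 4.3.3). It has 6 residual degrees of freedom, and the wider suppressor arrays enter the shared spread. All limma tests were two-sided, p-values were adjusted by Benjamini-Hochberg across the 71 probes, and intervals are 95% intervals of the moderated fit. An exact sign-flip test of 3 arrays cannot go below p = 0.25, and an exact permutation test of 3 against 3 cannot go below p = 0.1. The code was tested on simulated data. Named were all probes past the threshold, the 10 highest and 10 lowest means, every probe past the threshold under an alternative, all loci, and the 5 highest and 5 lowest differences between the mutants. The differences of the called probes were added. The comparison, lists and rules were chosen with earlier results of these data known.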

Additional observations from a re-analysis of the deposited data

Results flagged for a closer look

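The probe of spots 13 to 15 differed between the mcd1-2 and mcd1-1 arrays by the test of the difference itself. The difference, mcd1-2 minus mcd1-1, was -3.69 (limma adjusted p = 0.000366), with all 3 mcd1-2 arrays below 0 and all 3 mcd1-1 arrays above 0. On leaving out any 1 array of either allele, the limma adjusted p of this difference stayed at or below 0.011.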

How the results depend on the processing

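The 4 calls in mcd1-2 over wild type also gave a count of 4 with no array median subtracted, with probes valued on all 9 arrays and with a block for arrays that share missing probes. The count was 8 with array weights, and 2 to 5 on leaving out single mcd1-2 arrays. It was 3 with the 3 mcd1-2 arrays alone and after subtraction of a running median of neighbouring probes, and 5 with the median of the spots and with robust moderation. Fits with the arrays of both mutants, chosen after seeing the data, with scaled arrays and without spots below -10 gave 6. The probes added there were spots 34 to 36 (4 alternatives, limma adjusted p from 0.00853 to 0.981), 43 to 45 (6 alternatives, 0.0119 to 0.697), 46 to 48 (with array weights and with both mutants, 0.0326 to 0.837) and 88 to 90. Over its alternatives the adjusted p was 0.000705 to 0.227 for spots 55 to 57 and 0.000381 to 0.116 for spots 58 to 60. The difference between the alleles kept its count of 1 throughout. With the replicate block the counts were 4 and 1. Whether equal numbers pair the arrays was not settled. Of 9 correlations of deviations between same-numbered arrays, 1 exceeded 0.1 (range -0.375 to 0.379). Between arrays of different numbers these correlations ran from -0.463 to 0.374. Deviations from the mean of so few arrays are tied to each other, so these correlations cannot decide on a pairing. A pairing in another order was not tested. Of 605 values of single probes, 9 changed sign, none of them past the threshold. CHLRE_09g395950v5 turned to -0.0248 without mcd1-2 replicate 3 (up to 0.515 on leaving out another array). CHLRE_09g396213v5 turned to -0.0902 with neighbouring probes subtracted and to -0.0331 without replicate 2 (up to 0.0646 on leaving out another array, and 0.143 over all alternatives). CHLRE_05g238332v5 turned to 0.0996 without replicate 1 (down to -0.712 on leaving out another). CHLRE_09g412100v5 turned to -0.0505 with scaled arrays, -0.132 with array weights, -0.0431 with neighbouring probes subtracted and -0.536 without replicate 3 (up to 0.361 on leaving out another). For spots 97 to 99 the difference between the alleles turned to -0.0798 without mcd1-1 replicate 3 (up to 1.26 on leaving out another array, and 1.32 over all alternatives). Where a result changed with a setting, the cause was not tested.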
